A study of Homo sapiens with 9 samples.

Results

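The genes described here encode aminoacyl-tRNA synthetases, 35 genes named in a list: 19 whose enzymes serve the cytosol and 16 whose enzymes serve mitochondria. They were listed by name and not by a threshold on measured values, but earlier results of these data were known when they were chosen. All 35 were found among the 14836 genes named in at least 1 library, and all 35 passed the minimum mean level of 1 FPKM that left 12325 genes to test. FPKM is the number of sequenced fragments of a transcript, scaled to its length and to all mapped fragments of the library.

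The cells were WM3248, a line grown from human melanoma, and their poly-A RNA was sequenced. Cells had received DMSO alone (0 µM) or ARN22089 at 4 or 6 µM and were lysed after 24 h, with 3 libraries per dose, and the cells of all groups were grown alike. ARN22089 was designed as an inhibitor of the contact between CDC42-family GTPases and the effector proteins they switch on. WM3248 is 1 line, and whether replicate libraries stem from separate cultures is not stated, so p-values cover no more than the spread between libraries, which may be technical.

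A synthetase joins an amino acid to its tRNA, so that the ribosome can place that amino acid at its codon. Cells keep a set of these enzymes in the cytosol and another, encoded by separate nuclear genes, for the mitochondrial ribosome. GARS1 and KARS1 encode the glycine and lysine enzymes of both places, and mitochondria make glutamine tRNA by an indirect route, so GARS1, KARS1 and QARS1 have no mitochondrial partner in the list. Cytosolic synthetase genes are known targets of ATF4, the transcription factor of the integrated stress response, and WARS1, the tryptophan enzyme, is also known as a gene induced by interferon. ATF4 pairs with a C/EBP protein on the element TGATGNAA.

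A gene's main value adds up the FPKM of all transcripts assembled for it and is called the summed value. Since a locus assembled in pieces, or merged with its neighbour, changes that sum, another 2 values stand beside it where they differ. The consensus exon value averages FPKM by base over those exonic bases that were covered in at least 50% of the libraries. The fragment value is FPKM times transcript length in kilobases, summed over a gene's transcripts, and so counts fragments on the library's own scale. It does not change when a transcript is cut, but includes the reads of a neighbour that is merged in.

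The files give no read counts, and coverage per FPKM put the relative depth of the libraries between 0.8 and 1.34 of the median library. In 8 libraries the FPKM of all transcripts summed to between 587999 and 689699. Replicate 3 at 0 µM stood apart at 1061112, with 38.7% of its sum in 2 transcripts. The labelled cell type was checked against its markers: of 6 melanocyte lineage genes, 5 were above 0 in every library and MLANA in all but 1. Their summed level was between 177 and 307 FPKM at 0 µM, between 446 and 472 at 4 µM and between 436 and 573 at 6 µM. Endothelial markers (3 of 3), PTPRC, CD3E, EPCAM and KRT5 were listed at 0 in all 9 libraries, and CD68 was listed at 142 FPKM in 1 library (replicate 3 at 4 µM) and at 0 elsewhere, while its consensus exon value, which takes in transcripts named for any gene on the same bases, was between 44 and 239 in all 9. KRT14 stayed at or below 2.27 FPKM, and the 3 fibroblast genes (DCN, LUM and PDGFRA) summed to between 9.61 and 31.2 FPKM in a library. Of the melanocyte lineage genes, DCT was at 55.3 to 141 FPKM at 0 µM. It was at 246 to 281 at 4 µM and 218 to 365 at 6 µM. SOX10 was at 103 to 141, 144 to 160 and 144 to 158 FPKM for the doses in rising order. MITF and MLANA overlapped between 0 and 6 µM, and PMEL and TYR were higher at 6 µM without overlap. By the consensus exon value DCT was at 96 in 1 library at 6 µM, inside the range at 0 µM. The part of these genes in the values below was not tested.

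The sequences that carry the known link to ATF4 are shown first, because they do not depend on any level measured here. In RefSeq promoter windows (GRCh38.p14, 250 bases before to 50 after a start), 30 of the 35 genes had a window. LARS1, VARS1, YARS1, AARS2 and VARS2 were not matched. The letters TGATGNAA were searched on both strands. They occurred in 7 of 10 cytosolic genes usually counted as ATF4 targets, in 0 of 6 other cytosolic genes and in 1 of 14 mitochondrial genes (YARS2). Over all genes with a window, 4.46% of 27305 held them. A match is a description of letters and no proof of binding. The list of usual targets comes from earlier knowledge that may itself rest on such letters, so these counts are no test of the link. The 7 cytosolic matches follow with 10 bases on each side, on the strand of the gene, with the match in capitals. All but that of AARS1, which has an offset of -187 bases from the start, begin close to an annotated start.
TARS1: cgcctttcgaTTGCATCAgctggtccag
GARS1: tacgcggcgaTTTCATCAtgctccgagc
IARS1: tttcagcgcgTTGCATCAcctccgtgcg
CARS1: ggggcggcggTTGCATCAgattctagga
MARS1: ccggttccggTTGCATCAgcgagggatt
AARS1: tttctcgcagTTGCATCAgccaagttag
NARS1: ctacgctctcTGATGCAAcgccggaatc
These stand at chr5:33440957-33440984 (plus strand), chr7:30594835-30594862 (plus), chr9:92293693-92293720 (minus), chr11:3057408-3057435 (minus), chr12:57488054-57488081 (plus), chr16:70289676-70289703 (minus) and chr18:57621805-57621832 (minus), in the same order. In 6 of them the match reads in reverse, and in NARS1 it reads forward.

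WARS1 (chr14:100333790-100376327, minus strand) has no such match in its windows. It has 2 annotated starts, 980 bases apart. The 150 bases before the downstream start, at chr14:100375348-100375497 on the minus strand, are printed because they hold the letters of both interferon elements. The first capitals are a match to the GAS element TTCNNNGAA, which 7.66% of all 35116 windows held. The second are a match to the ISRE core (GAAA, a pair of free bases and GAAA), which 3.57% held. Counted by gene, 9.38% and 4.38% of 27305 held them in any window. Of the other synthetase genes, TARS1, CARS1, PARS2 and WARS2 also held the GAS letters, and EARS2 the ISRE core.
WARS1 downstream start: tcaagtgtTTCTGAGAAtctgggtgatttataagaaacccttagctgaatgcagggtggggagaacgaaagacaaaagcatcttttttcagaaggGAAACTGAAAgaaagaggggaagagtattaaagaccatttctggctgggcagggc
The window before the upstream start held neither set of letters. It held instead CCGGAAGT, the core read by ETS factors, at chr14:100376335-100376362 on the minus strand.
WARS1 upstream start: cgccgtcgggCCGGAAGTtgttccgtcc

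The cytosolic genes were expressed at several times the level of the mitochondrial ones in every library. The median cytosolic gene lay between 63.5 and 85.3 FPKM in the 9 libraries and the median mitochondrial gene between 14 and 16.1 FPKM, on the summed scale. Between 12 and 14 of the 16 mitochondrial genes were below all 19 cytosolic genes in a given library. The exceptions were chiefly IARS2 and CARS2, the mitochondrial isoleucine and cysteine enzymes.

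Ordered by the mean consensus exon value over the 9 libraries, WARS1 led with 225 FPKM. FARSA, the alpha subunit of the cytosolic phenylalanine enzyme, followed with 164 and KARS1 with 120. MARS1 (methionine) at 91.7, GARS1 at 87.8 and NARS1 (asparagine) at 85.3 came next and overlapped each other over libraries. IARS2 was in 7th place with 75.7 FPKM, above AARS1 (alanine, 74.0), QARS1 (glutamine, 67.7) and VARS1 (valine, 67.0). RARS1 (arginine) at 61.5, EPRS1 (the fused glutamate and proline enzyme) at 58.3, YARS1 (tyrosine) at 57.8, HARS1 (histidine) at 56.8 and TARS1 (threonine) at 53.0 formed the middle, and their ranges overlapped. IARS1 (isoleucine) was at 47.1, CARS2 at 47.0, SARS1 (serine) at 45.2, CARS1 (cysteine) at 43.0, LARS1 (leucine) at 39.5 and FARSB, the other phenylalanine subunit, at 34.6.

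The remaining mitochondrial genes made up the lower end of that order. HARS2 was at 32.2 FPKM, SARS2 at 24.5 and YARS2 at 16.5. VARS2 (14.8), RARS2 (14.6), EARS2 (13.8), NARS2 (13.7) and TARS2 (13.2) were close together. AARS2 (9.31), MARS2 (9.07), FARS2 (8.81) and LARS2 (8.17) were lower, and WARS2 (3.37) and PARS2 (2.43) were lowest. PARS2, the mitochondrial proline enzyme, was listed at 0 in replicate 2 at 6 µM, the only such case among the 35 genes. An exact 0 can be a failed assembly.

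**Figure D1:**
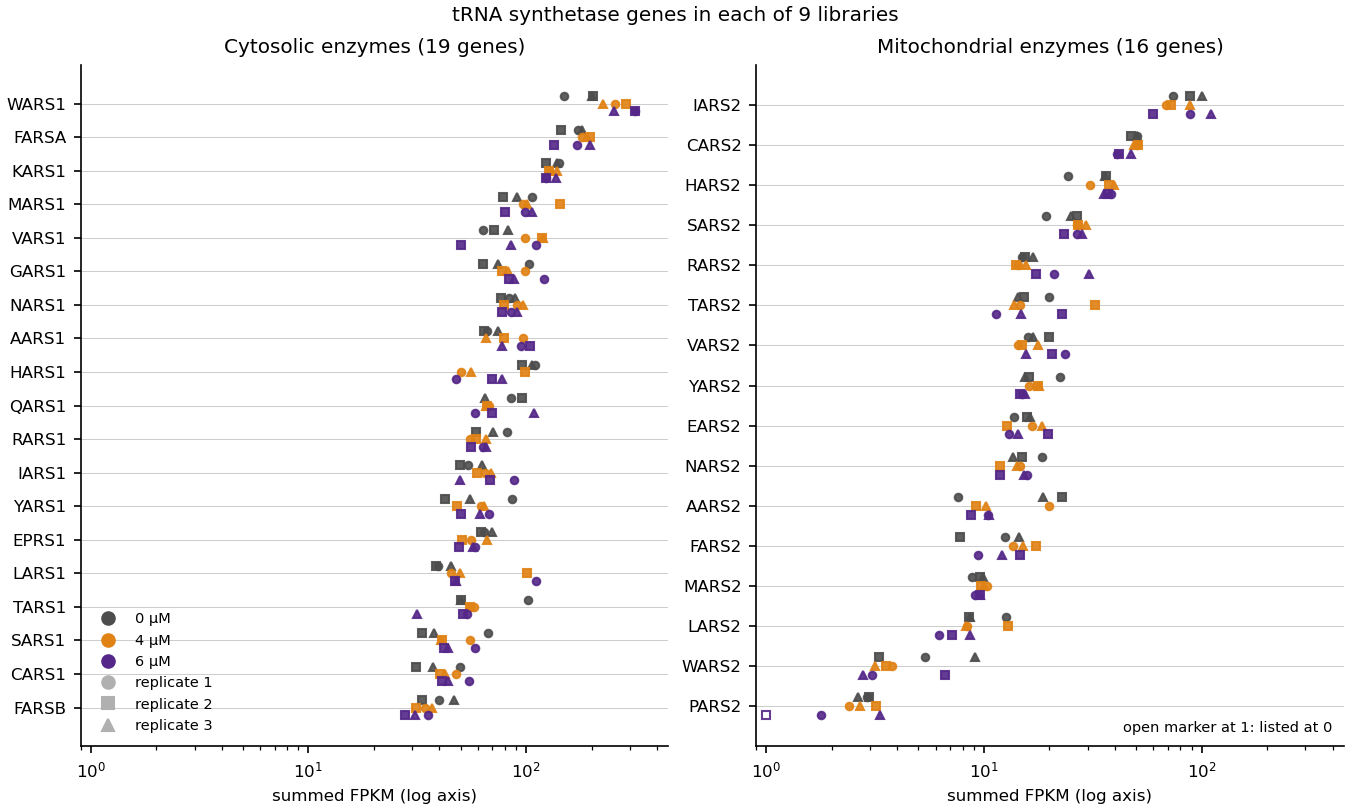
Summed FPKM of each gene in each of the 9 libraries on log axes, with cytosolic genes on the left and mitochondrial genes on the right. Colour gives the dose, marker shape the replicate number, and an open marker at 1 a value listed at 0. WARS1 is on top at both doses, and the mitochondrial genes other than IARS2, CARS2 and HARS2 lie below nearly all cytosolic genes.

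FARSA and FARSB encode the subunits of 1 enzyme, yet FARSA was the higher in every library, at 135 to 196 FPKM against 27.8 to 46.7 FPKM for FARSB. Set beside the mitochondrial enzyme for the same amino acid, the cytosolic gene was the higher in nearly all of 17 pairs. Of 152 ratios of consensus exon values (a pair in a library), 15 were below 1, and all 15 were those of isoleucine and cysteine. IARS1 against IARS2 gave ratios of 0.589 ± 0.102, 0.603 ± 0.0537 and 0.716 ± 0.142 (SD, n = 3) for the doses in rising order. CARS1 against CARS2 gave 0.809 ± 0.201, 0.867 ± 0.0739 and 1.09 ± 0.2. The widest pair was tryptophan, with WARS1 over WARS2 at 48.2 ± 17.8, 70.4 ± 9.42 and 89.3 ± 4.59. The 3 ratios at 6 µM (90.0, 93.5 and 84.4) were above those at 0 µM (28.4, 63.1 and 53.1).

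The comparisons of 4 with 0 µM and of 6 with 0 µM ask what the compound changed at each dose, and they share the 3 libraries at 0 µM. At 4 µM, 0 of the 35 genes passed limma's test at an adjusted p of 0.05, where 9 of 12325 genes (0.073%) did. At an unadjusted p below 0.05 there were 2 higher genes (VARS1 and WARS1) and 1 lower (HARS1), against 6.16% higher and 4.61% lower over all genes. At 6 µM, 0 of the 35 passed, where 38 genes (0.308%) did. At an unadjusted p below 0.05 there were 3 higher (AARS1, WARS1 and RARS2) and 1 lower (HARS1), against 8.07% and 9.66% over all genes. Between 6 and 4 µM 0 of the 35 passed, where 3 genes (0.0243%) did. RARS2 alone was higher at an unadjusted p below 0.05 and 0 were lower, against 1.73% and 2.95% over all genes. Counted by libraries that did not overlap, 3 genes were higher and 0 lower at 4 µM (9.96% and 8.4% of all genes were), 4 higher and 4 lower at 6 µM (10.9% and 14%), and 1 higher and 4 lower between the doses (3.72% and 7.32%). These shares of the 35 genes were near or under those of all genes, except that of the 4 lower genes between the doses, which was above its background.

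As a group the genes stayed close to the median of all genes. The cytosolic genes had a median log2 difference of FPKM + 1 of 0.10 at 4 µM and 0.02 at 6 µM against 0 µM, with 11 of 19 positive at each dose, and the mitochondrial genes -0.02 and -0.05, with 7 and 6 of 16 positive. Over all genes tested the median was 0 and -0.03, with 49.6% and 46.4% positive. Rescaling to TPM, a fixed sum per library, moved the median of all genes to 0.31 and 0.23, and relative to that shift the groups again differed little, at 0.45 and 0.32 for cytosolic and 0.31 and 0.24 for mitochondrial genes. The mitochondrial genes sat lower at 6 µM with the other values: the median was -0.23 with the consensus exon value and -0.24 with the fragment value, with 4 of 16 positive in both, where all genes had -0.05 and -0.07, with 43.9% and 42.9% positive. The cytosolic median was then -0.08 in both.

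**Figure D2:**
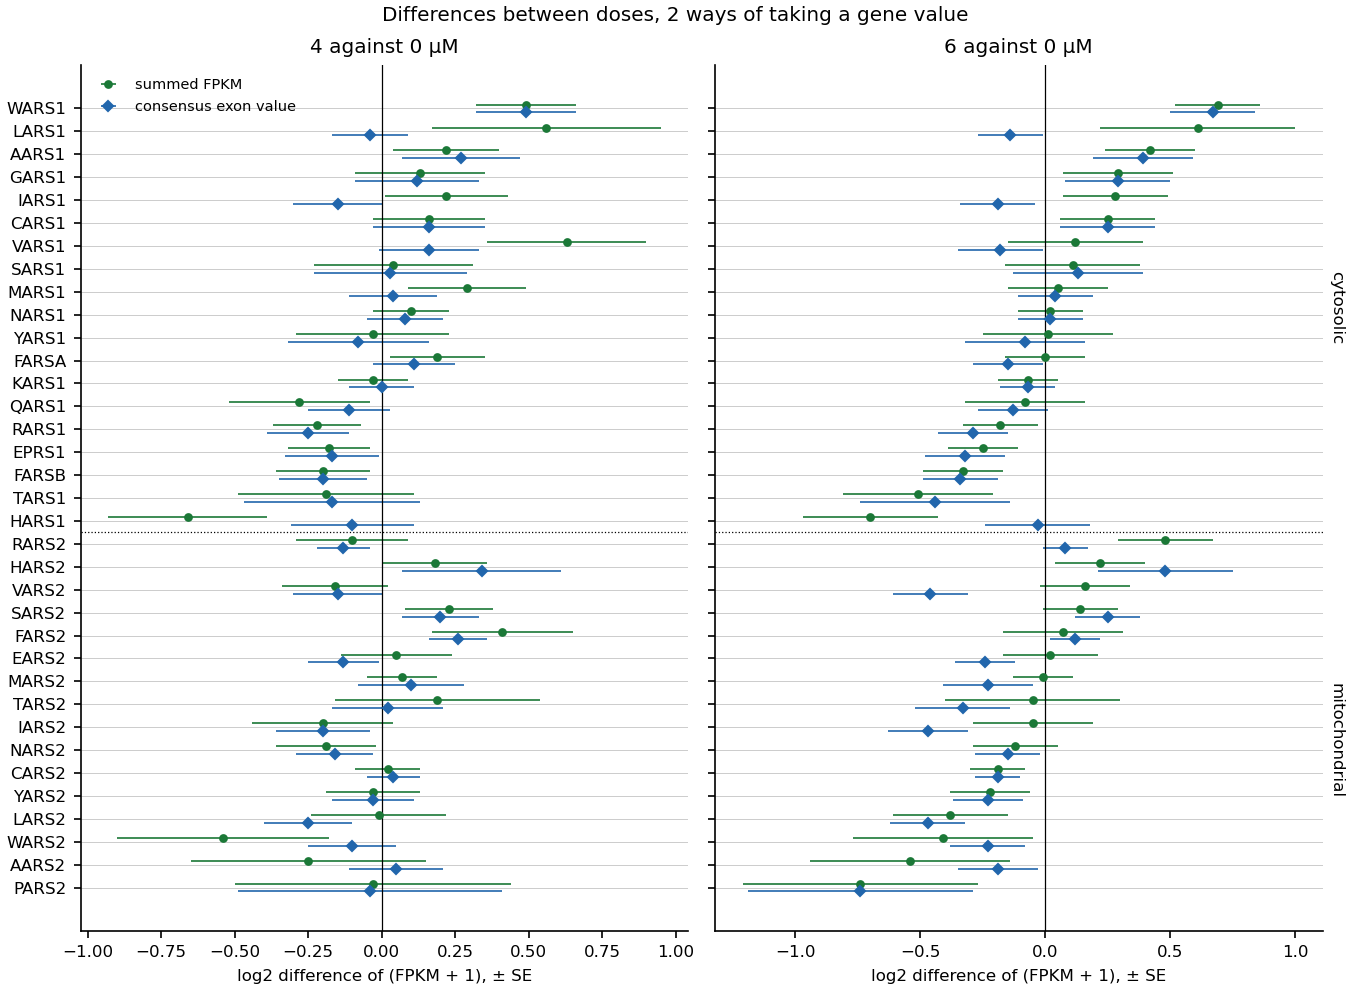
Log2 differences of FPKM + 1 (± SE of limma) for the 35 genes at 4 and at 6 µM against 0 µM, with the summed value (circles) and the consensus exon value (diamonds); cytosolic genes stand above the dotted line, ordered by the summed value at 6 µM. Both panels share this order, so WARS1 is the top row in each, at 0.49 and 0.69 with the summed value. At 4 µM VARS1 had a larger summed difference than WARS1. LARS1, HARS1, RARS2 and VARS2 are apart between the 2 values.

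WARS1 had positive differences of like size under each of the 3 values. The gene was at 150, 202 and 201 FPKM at 0 µM, at 257, 288 and 226 FPKM at 4 µM and at 316, 318 and 253 FPKM at 6 µM (replicates 1 to 3). All 3 libraries of each dose were above the 3 at 0 µM, and the 2 doses overlapped. The log2 difference was 0.49 ± 0.17 at 4 µM (limma adjusted p = 0.397) and 0.69 ± 0.17 at 6 µM, or 1.61-fold (adjusted p = 0.106), so neither passed over all genes. With the consensus exon value it was 0.49 and 0.67 (limma adjusted p = 0.267 and 0.0608). Over all alternatives run, the difference at 6 µM lay between 0.54 and 0.99 and its adjusted p between 0.0604 and 0.276. Without replicate 1 at 0 µM, the library with the lowest level, it was 0.54 (limma adjusted p = 0.157). At 4 µM it was then 0.34 (adjusted p = 0.482).

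The share of WARS1 in all cytosolic synthetase FPKM showed the same order of doses. It was 8.97%, 14.3% and 12.7% at 0 µM, then 15.6%, 16.4% and 13.8% at 4 µM and 17.4%, 20.6% and 15.3% at 6 µM. Replicate 3 at 4 µM, at 13.8%, lay inside the range at 0 µM, and the 6 µM libraries lay above it.

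In every library, some WARS1 transcripts were assembled from at or upstream of the upstream annotated start. Others began between the 2 annotated starts and were grouped with the downstream one. Use of the starts themselves was not measured. Transcripts grouped with the upstream start held 78.0%, 50.4% and 67.5% of the WARS1 FPKM at 0 µM. They held 24.4%, 74.4% and 61.5% at 4 µM and 72.5%, 17.2% and 32.1% at 6 µM. The means were 65.3% ± 13.9, 53.4% ± 26 and 40.6% ± 28.6 (SD, n = 3), and the shares overlapped between all doses. FPKM grouped with the downstream start, whose window holds the interferon elements printed above, was 32.8, 100 and 65.3 at 0 µM. It was 194, 73.7 and 87.0 at 4 µM and 45.6, 263 and 172 at 6 µM. Those transcripts began between 139 and 286 bases upstream of the RefSeq downstream start, and in 7 of 9 libraries they held the whole printed stretch. In replicates 1 and 2 at 6 µM they began within it. Assembly splits the shared exons between starts, and the split differed widely between libraries of the same dose.

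**Figure D3:**
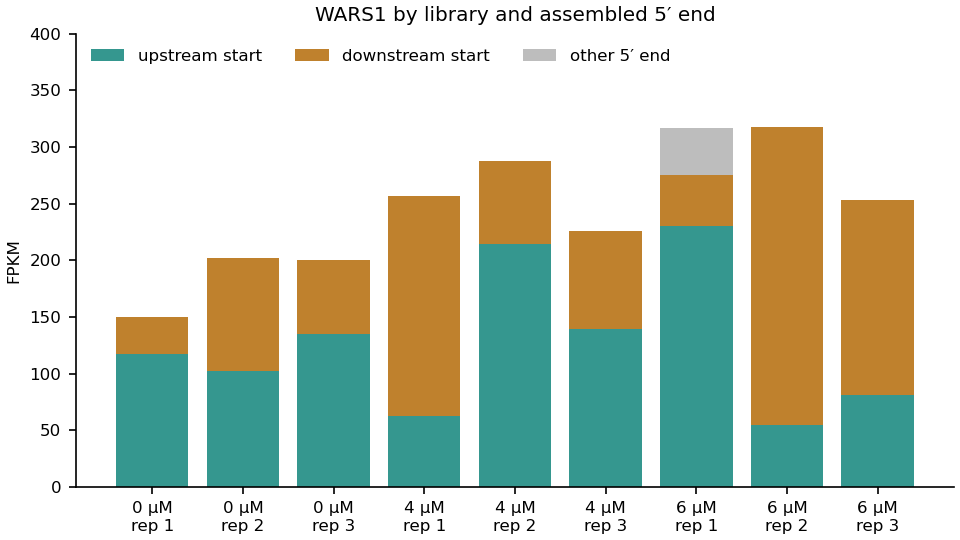
FPKM of WARS1 in each library (bars, from 0), divided by the annotated start with which the assembled 5′ ends were grouped. The 6 treated bars are all taller than the 3 at 0 µM, and the share of the upstream start ranges from 17.2% to 78.0% with overlap between all doses.

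Of 10 other interferon-induced genes, 0 passed by limma at 4 or 6 µM with the summed value, and their median log2 difference was 0.11 and 0.08. IFIT1 was at 2.7 ± 0.343 FPKM (SD, n = 3), 2.23 ± 0.452 and 1.31 ± 0.351 for the doses in rising order, and GBP1 at 2.4 ± 0.373, 2.4 ± 0.562 and 2.12 ± 0.443. MX1, low throughout at 0 to 3.04 FPKM, had 0.96 ± 0.43 at 6 µM (limma adjusted p = 0.285). GBP2, IFIT3 and OAS1 also had higher mean FPKM at 6 than at 0 µM, and IRF1, IFIT2 and ISG15 had lower means.

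The 12 cytosolic genes usually counted as ATF4 targets were AARS1, CARS1, EPRS1, GARS1, IARS1, LARS1, MARS1, NARS1, SARS1, TARS1, WARS1 and YARS1. Their median log2 difference was 0.14 at 4 µM and 0.18 at 6 µM, with 9 and 10 positive, and 0 passed. The other 7 cytosolic genes had -0.20 and -0.08, with 2 and 1 positive. With the consensus exon value the medians were 0.03 and 0.03 for the first group, with 7 of 12 positive at each dose, and -0.10 and -0.15 for the second, with 2 and 0 of 7 positive.

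ATF4 regulators and its targets outside the synthetases, 26 genes, had larger values. Their median log2 difference was 0.25 at 4 µM and 0.47 at 6 µM, with 22 and 20 positive and 0 passing limma's test. At an unadjusted p below 0.05, the lower dose had 5 higher genes, and the higher dose 8 higher genes and 1 lower, where 6.16%, 8.07% and 9.66% of all genes were. NUPR1, a stress-induced nuclear protein, was at 2.67, 0 and 1.56 FPKM at 0 µM, then 17.6, 9.6 and 2.95 at 4 µM and 26.5, 16.5 and 10.3 at 6 µM, with no overlap with 0 µM. Its log2 difference at 6 µM was 3.06 ± 0.66 (limma adjusted p = 0.0756, and 0.0427 with the consensus exon value). SLC3A2, the heavy chain shared by amino acid transporters, was at 175, 138 and 122 FPKM at 0 µM and 256, 222 and 215 at 6 µM, a log2 difference of 0.68 ± 0.16 (adjusted p = 0.09, and 0.034 with the fragment value). ATF3, a transcription factor downstream of ATF4, was at 4.54, 3.03 and 3.81 FPKM and at 13.4, 8.01 and 5.89 at 6 µM (1.02 ± 0.27, adjusted p = 0.113).

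Within each dose, some of the ATF4 targets were ordered by replicate number. CARS1, GARS1, SARS1 and TARS1 were highest in replicate 1 at all 3 doses, which is 4 of 19 cytosolic genes (21.1%), against 6.54% of all genes. These 4 were noticed after their values were seen. GARS1 was at 103, 63.5 and 74.1 FPKM at 0 µM, then 99.3, 77.3 and 82.7 at 4 µM and 121, 83.8 and 88.1 at 6 µM. SARS1 was at 67.1, 33.4 and 37.7 at 0 µM, then 55.2, 40.9 and 40.6 at 4 µM and 58.4, 42.0 and 43.7 at 6 µM. In both genes replicate 1 at 0 µM was above replicates 2 and 3 at either dose.

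CARS1 was at 49.9, 31.2 and 37.2 FPKM, 47.6, 40.2 and 42.4, and 54.6, 41.1 and 43.9. TARS1 was at 102, 50.1 and 50.2, 57.7, 55.0 and 54.5, and 53.5, 51.5 and 31.7. With the fragment value AARS1 took the place of TARS1 in this count. Replicate 3 was highest at all doses for 1 cytosolic gene with the summed value, for 5 of 19 (26.3%) with the consensus exon value (FARSA, KARS1, LARS1, NARS1 and VARS1) and for 6 (31.6%) with the fragment value, those 5 and HARS1, against 8.68% and 8.67% of all genes. In the list of ATF4 regulators and non-synthetase targets, 14 of 26 genes (53.8%) were highest in replicate 1 at all 3 doses. That is by the summed value, against 6.54% of all genes. Among them were ASNS (asparagine synthetase), TRIB3 and PHGDH. ASNS was at 65.7, 13.2 and 18.2 FPKM at 0 µM, then 45.3, 20.2 and 25.6 at 4 µM and 56.2, 35.3 and 35.3 at 6 µM. With the summed value WARS1 was highest in replicate 2 and NARS1 in replicate 3 at all doses. What the replicate numbers stand for is not stated in the labels. Fits with the replicate numbers added are given in the closing section, and what same-numbered libraries share was not tested.

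**Figure D4:**
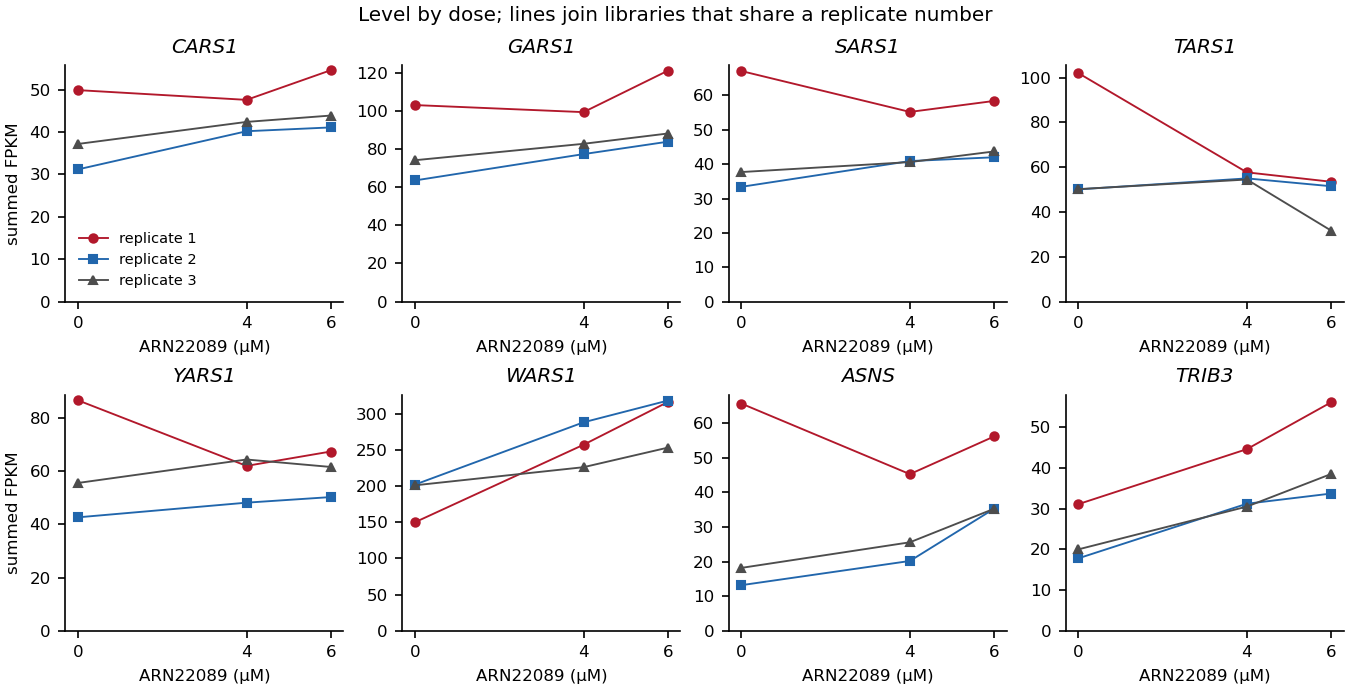
Summed FPKM by dose of ARN22089 for 6 synthetase genes and for ASNS and TRIB3, ATF4 targets outside the family, with a line for each replicate number. Replicate 1 is on top at every dose for CARS1, GARS1, SARS1, TARS1, ASNS and TRIB3, and not for YARS1 at 4 µM or for WARS1.

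Several values of single genes moved with the way their locus was assembled. LARS1 (chr5:146113034-146182650, minus strand) was at 39.6, 38.5 and 45.4 FPKM at 0 µM, then 45.1, 101 and 49.8 at 4 µM and 111, 47.2 and 47.9 at 6 µM. The 2 high libraries are those in which the gene was assembled in separate pieces, whose FPKM add up. The consensus exon value was between 35.4 and 46.9 in all 9 libraries, and the fragment value between 169 and 226. In all, 10 of 315 cases (a gene in a library) were assembled in more than 1 piece, in 7 genes.

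**Figure D5:**
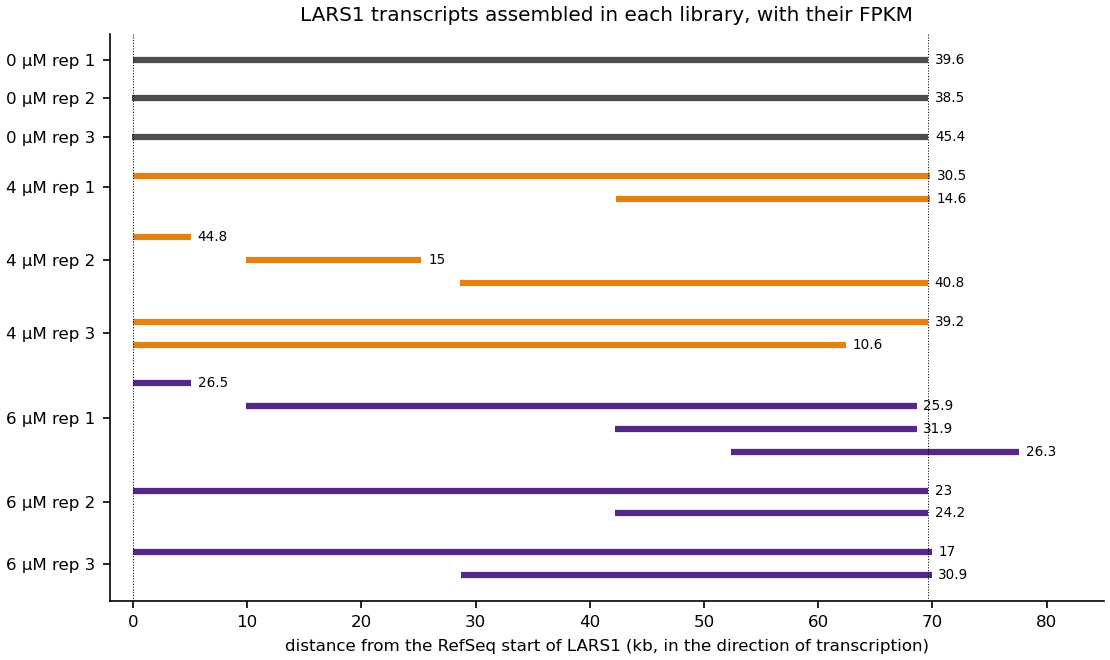
Transcripts of LARS1 assembled in each library, drawn as the span from their first to their last base by distance from the RefSeq start in kilobases, with the FPKM of each at its end. Replicate 2 at 4 µM and replicate 1 at 6 µM have no transcript over the whole gene, and the dotted lines mark the annotated ends.

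HARS1 (chr5:140673905-140691370, minus strand) showed the lower summed values at both doses. It was at 110, 95.9 and 106 FPKM at 0 µM, then 50.3, 98.8 and 56.1 at 4 µM and 47.6, 69.6 and 77.7 at 6 µM. At 6 µM the groups did not overlap, and at 4 µM they did. The log2 difference was -0.66 ± 0.27 at 4 µM (limma adjusted p = 0.445) and -0.70 ± 0.27 at 6 µM (adjusted p = 0.242). Transcripts ran past the annotated 3′ end in 8 of 9 libraries, controls included, by 570 to 4219 bases. The longest were those of replicate 3 at 0 µM (3109 bases), replicates 1 and 3 at 4 µM (3078 and 4219) and replicates 1 and 3 at 6 µM (4218 in each). With the fragment value HARS1 was at 219, 179 and 233, then 216, 221 and 226, then 196, 185 and 277, and the differences turned to 0.08 and 0.04 (adjusted p = 0.863 and 0.903). With the consensus exon value they were -0.10 and -0.03 (limma adjusted p = 0.849 and 0.953). That value averages over 3443 bases, bases past the annotated 3′ end among them. The transcript of replicate 2 at 0 µM, which did not run past that end, has 1868 bases. The consensus level of 56.8 FPKM given above rests on the same 3443 bases.

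HARS1 and HARS2 are transcribed away from each other from starts 84 bases apart, and the interval between them is printed because both genes share it. In plus-strand direction it is at chr5:140691371-140691454, with both matches to the ETS core CCGGAAGT, in each direction, in capitals. These letters were in 4.14% of all windows.
between HARS1 and HARS2: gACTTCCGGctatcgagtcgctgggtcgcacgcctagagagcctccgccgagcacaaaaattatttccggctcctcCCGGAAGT
HARS2 was at 24.3, 36.3 and 35.9 FPKM at 0 µM, then 30.7, 37.7 and 39.8 at 4 µM and 38.2, 37 and 35.6 at 6 µM, with all doses overlapping. Its log2 difference was 0.18 ± 0.18 and 0.22 ± 0.18 (limma adjusted p = 0.735 and 0.57), of the opposite sign to that of the summed value of HARS1, and the difference between the genes was not tested.

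AARS1 (chr16:70252298-70289506, minus strand) was at 66.4, 64.4 and 74.0 FPKM at 0 µM, then 96.6, 79.3 and 65.2 at 4 µM and 94.7, 104 and 77.6 at 6 µM. The 6 µM libraries were above those at 0 µM, with a log2 difference of 0.42 ± 0.18 (limma adjusted p = 0.273). The 3 lowest libraries were those whose transcripts ran 5640, 5474 and 5483 bases past the annotated end (replicates 1 and 2 at 0 µM and replicate 3 at 4 µM). The fragment value was at 309, 286 and 248 at 0 µM and 310, 263 and 253 at 6 µM, a difference of -0.03 (limma adjusted p = 0.922), and it counts the reads of those long ends. The consensus exon value was at 58.3, 56.2 and 74.0 at 0 µM and 93.6, 77.5 and 76.4 at 6 µM, with no overlap and a difference of 0.39 ± 0.20 (adjusted p = 0.26).

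VARS1 was at 63.5, 71.4 and 82.7 FPKM at 0 µM, then 98.9, 118 and 120 at 4 µM and 111, 50.2 and 85.6 at 6 µM. At 4 µM all libraries were above those at 0 µM, with 0.63 ± 0.27 (limma adjusted p = 0.454). With the consensus exon value they overlapped, at 53.5, 68.8 and 80.2 against 76.1, 70.3 and 77.1 FPKM. RARS2, the mitochondrial arginine enzyme, was at 15.0, 15.5 and 16.8 FPKM at 0 µM, then 14.3, 14.1 and 15.6 at 4 µM and 21.0, 17.4 and 30.4 at 6 µM. The 6 µM libraries were above the others, with 0.48 ± 0.19 against 0 µM (limma adjusted p = 0.249) and 0.58 ± 0.19 against 4 µM (adjusted p = 0.953). Its highest library was assembled in 2 pieces, and the consensus exon value there was 14.5, inside the range of 14 to 15.7 at 0 µM.

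Some mitochondrial genes had lower consensus exon values at 6 µM than at 0 µM. By that value IARS2, LARS2 and VARS2 had an unadjusted p below 0.05 in that direction, 3 of 16 genes, and FARSB did among 19 cytosolic ones (15.4% of all genes did). WARS1 alone was higher by that measure (9.63% of all genes were). In the limma fit without the replicate numbers 0 of the 35 genes passed with it, where 528 of 12206 genes (4.33%) did at 6 µM, 11 (0.0901%) at 4 µM and 6 (0.0492%) between the doses. With the fragment value 0 passed as well, where 3.84%, 0.0878% and 0.016% of all genes did. IARS2 (chr1:220094132-220148041, plus strand) had 74.2, 88.4 and 101 FPKM at 0 µM, then 68.6, 72 and 88.1 at 4 µM and 56.9, 59.7 and 72.5 at 6 µM. The 6 µM libraries were all below the controls, a log2 difference of -0.47 ± 0.16 (limma adjusted p = 0.125). With the replicate numbers added to the fit of this value IARS2 did pass, as given in the closing section. The summed value, in which replicate 3 at 6 µM was at 111 and overlapped the controls, gave -0.05 (adjusted p = 0.937), and the fragment value -0.43 (adjusted p = 0.138).

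LARS2, the mitochondrial leucine enzyme, had consensus exon values of 12.4, 8.55 and 8.46 FPKM at 0 µM, then 8.18, 7.52 and 8.25 at 4 µM and 6.19, 6.58 and 7.36 at 6 µM. Both doses lay below the controls, and the difference at 6 µM was -0.47 ± 0.15 (limma adjusted p = 0.0995). VARS2, the valine enzyme, had 15.9, 18.4 and 16.8 at 0 µM and 9.61, 13.0 and 14.2 at 6 µM, a difference of -0.46 ± 0.15 (adjusted p = 0.103) that was 0.16 ± 0.18 with the summed value (adjusted p = 0.68). CARS2, with 1 transcript in every library, was at 50.5, 47.4 and 50.6 FPKM at 0 µM, then 50.3, 50.9 and 49.1 at 4 µM and 41.1, 41.7 and 47.2 at 6 µM. Its 6 µM libraries were below all others, if narrowly, with -0.19 ± 0.11 (limma adjusted p = 0.415).

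KARS1 was between 123 and 142 FPKM in all libraries, NARS1 between 77.0 and 97.2, FARSA between 135 and 196 and MARS2 between 8.83 and 10.3. EPRS1 was at 65.5 ± 3.87 FPKM (SD, n = 3), 57.8 ± 7.88 and 54.9 ± 5.09, with a log2 difference at 6 µM of -0.25 ± 0.14 (limma adjusted p = 0.385). The 6 µM libraries of EPRS1 lay below those at 0 µM. YARS1 was between 42.6 and 86.5 FPKM, and RARS1 between 55.4 and 81.6.

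The other summed values covered these ranges over the 9 libraries. IARS1 lay between 49.6 and 88.2 FPKM, MARS1 between 78.6 and 143, and QARS1 between 58.3 and 109. AARS2 was between 7.63 and 22.8, and of its 3 highest libraries 2, replicates 2 and 3 at 0 µM, were assembled in 2 pieces. EARS2 (glutamate) ranged from 12.8 to 19.7, FARS2 from 7.81 to 17.4, NARS2 from 11.8 to 18.5, SARS2 from 19.2 to 29.4, TARS2 from 11.4 to 32.5, WARS2 from 2.78 to 9.11 and YARS2 from 14.7 to 22.3. The 2 highest values of TARS2 were again the libraries in 2 pieces.

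Grouped by their role, the genes gave similar medians. The 7 cytosolic synthetases of the multisynthetase complex (EPRS1, IARS1, LARS1, MARS1, QARS1, RARS1 and KARS1), a particle that holds several of the enzymes together, had median log2 differences of -0.03 at 4 µM and -0.07 at 6 µM. Its scaffold proteins AIMP1, AIMP2 and EEF1E1 had -0.09 and -0.15, and EEF1E1 was at 76 ± 7.28 FPKM, 72 ± 12.2 and 55.5 ± 15.9. The 18 class I and 16 class II enzymes, which differ in the fold of the catalytic domain, had 0.01 and -0.03 at 6 µM with the summed value. With the consensus exon value 4 of 18 class I genes (22.2%) were positive at 6 µM, with a median of -0.19, and 7 of 16 class II genes (43.8%), with -0.05. Of all genes 43.9% were positive in that fit, with a median of -0.05, and the difference between the classes was not tested.

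Genes around the synthetases gave 0 calls by limma at any comparison with the summed value. The 9 further enzymes that act on aminoacyl-tRNA had median log2 differences of -0.14 at 4 µM and -0.17 at 6 µM, with 3 and 1 positive. Of 18 genes of tRNA maturation and export, TRNT1, which adds the CCA end of tRNAs, and POP1 were lower at 6 µM at an unadjusted p below 0.05, at -0.56 ± 0.24 and -0.52 ± 0.20. That is 2 of 18, near the 9.66% of all genes that were lower. Of 9 elongation factor genes EEF1A1, whose protein carries charged tRNA to the ribosome, had 3800 ± 805 FPKM (SD, n = 3) at 0 µM and 5320 ± 985 at 6 µM, with overlapping libraries. It was the 1 higher gene by that measure (8.07% of all genes were), and 0 of the 9 were higher by the consensus exon value. In the list of MYC and growth control, 6 of 7 genes were tested and MAX, the partner of MYC, had 0.50 ± 0.12 at 6 µM (limma adjusted p = 0.0925, and 0.038 with the consensus exon value).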

How the data were processed

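Poly-A enriched RNA of 9 WM3248 libraries (0, 4 and 6 µM, 3 each) was assembled by the authors into transcripts, 1 file per library. Cufflinks 2.2.1, TopHat2 2.1 with Bowtie2 2.2.7, Trimmomatic, SAMtools 1.9 and R 4.0.3 are named in the submitters' processing notes. The deposited values are FPKM per transcript, and the deposited score column was not used. Strandedness and any guiding annotation are not given in the sources used here, so values of overlapping genes are uncertain.

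The notes name GRCh37, but GT and AG ends were found there for just 8 of 2171 plus-strand introns of chromosome 20 (0.37%), and 352 transcripts lie on scaffolds of GRCh38 alone. Coordinates are GRCh38. A spliced transcript was named by the RefSeq gene on its strand with the most shared intron lengths (185675 of 193769, 95.8%), and a single-exon transcript if 50% or more of its length fell into exactly 1 gene, itself never assembled with introns. This naming was not foreseen in the design.

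Summed FPKM were tested as log2(FPKM + 1), which understates changes of low genes, in 1 limma 3.58.1 fit (R 4.3.3) over all 9 libraries with a trended prior, 6 residual degrees of freedom and a mean of at least 1 FPKM. P-values were two-sided and adjusted by Benjamini-Hochberg over all genes at 0.05. The fit was tested on simulated data. The alternatives were a pseudocount of 0.1, no filter, TPM, median-ratio scaling, the consensus exon value, the highest transcript, the replicate block, the compared doses alone, a constant prior and each library left out. The fragment value, and the consensus exon value with the block, were added after seeing the data. Naming used Python 3.11.15 and pandas 2.3.3. The genes and lists were chosen with earlier results of these data known. All 35 genes were named, with tests for those at an unadjusted limma p below 0.05 or where another value changes the picture. From other lists at most 3 genes with the smallest p were named. Further ones were picked after their values were seen (GBP1, GBP2, IFIT2, IFIT3, IRF1, ISG15, OAS1, ASNS, TRIB3, PHGDH, AIMP1 and AIMP2). Results on 2 genes of the other lists are not reported here.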

Additional observations from a re-analysis of the deposited data

How the results depend on the processing

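With 3 libraries a dose, the spread limits these comparisons, and depth in reads is unknown. The 8 differences of single genes with an unadjusted p below 0.05 gave 160 values under the alternatives, of which 157 kept their direction, 0 reached an adjusted p of 0.05, and 3 reversed, all with the fragment value: HARS1 to 0.08 at 4 µM and 0.04 at 6 µM, and AARS1 to -0.03 at 6 µM. The cause of these changes was not tested.

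Genes called over all genes numbered 9 at 4 µM, 38 at 6 µM and 3 between the doses. At 4 µM leaving out 1 library gave 4 to 25 (25, 23 and 23 with the 0 µM replicates 1, 2 and 3 left out, 16 with replicate 3 of 4 µM, 4 with replicate 1 of 6 µM). At 6 µM it gave 17 to 74 (74 with replicate 1 of 0 µM left out, 17 with either of replicates 1 and 2 of 4 µM, 18 with either of replicates 1 and 2 of 6 µM). Between the doses it gave 2 to 14, and 7 libraries (all but replicates 2 and 3 of 0 µM) moved it by more than 1.5 times. At 6 µM, TPM, the highest transcript, the compared doses alone and the constant prior gave 17 each, median-ratio scaling 63, the consensus exon value 528 and the fragment value 481. The split of 22 higher and 16 lower became 16 and 1 with TPM and 204 and 324 with the consensus exon value, and 153 and 328 with the fragment value. Between the doses no filter and the constant prior gave 5 each, and the consensus exon value 6.

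The replicate numbers share a mark in the labels whose meaning is not stated, and correlations of deviations between same-numbered libraries ran from -0.01 to 0.13 for summed values, from 0.02 to 0.18 for consensus exon values and from 0.01 to 0.16 for fragment values. Not every pair was above 0.1, so the numbers were not taken to pair the libraries. With the fragment value, however, all 3 pairs of 4 with 6 µM were above it (0.11, 0.16 and 0.14). Differently numbered libraries of those doses had correlations of -0.11 to -0.02 with that value. What same-numbered libraries share was not tested. With the replicate block 2, 4 and 1 genes passed at 4 µM, 6 µM and between the doses. With the consensus exon value and the replicate block 682 passed at 6 µM (5.59%) and 5 between the doses. There IARS2 was the 1 synthetase gene that passed at 6 µM (-0.47, limma adjusted p = 0.0448, and between 0.125 and 0.937 with the other values and blocks).

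The cytosolic median moved with TPM to 0.45 at 4 µM and 0.32 at 6 µM, with the consensus exon value (with or without the block) and the fragment value to -0.08 at 6 µM and -0.04 between the doses, and with the highest transcript to -0.19 and -0.07. The mitochondrial median moved with TPM to 0.31 and 0.24, with the consensus exon value (with or without the block) to -0.23 at 6 µM and -0.21 between the doses, with the fragment value to -0.24 and -0.23, and with the highest transcript to -0.17 at 6 µM. Leaving out 1 library gave cytosolic medians of -0.02 to 0.20, -0.06 to 0.14 and -0.07 to 0.04 for 4 against 0, 6 against 0 and 6 against 4 µM, and mitochondrial medians of -0.06 to 0.01, -0.12 to -0.04 and -0.14 to -0.04.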
